A study of Sus scrofa with 12 samples.

Results

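The genes described here mark fibroblasts that have been activated by injury and the contractile, matrix-producing myofibroblasts that such cells can become. They were taken as a list of 10 symbols, namely FAP, THY1, MEOX1, CTHRC1, LRRC15, LRRC17, RUNX1, RUNX2, SCX and DDR2, and matched to the pig gene identifiers of the count tables. Of the 10 genes, 9 had an identifier in the name table used, and 7 were among the 13844 genes, of 35682 in the tables, that had enough reads to be tested. THY1 had no identifier there and was not analysed here. LRRC15 and RUNX2 fell under the filter on low counts, so they were fitted only without that filter.

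RNA was sequenced from the hearts of 6 female Yorkshire pigs aged 10 to 12 weeks, with 1 library from the border zone and 1 from the remote zone of each animal, 12 libraries in all. In each animal a balloon closed the left anterior descending coronary artery for 60 min before reperfusion. Tacrolimus at 0.75 mg/kg, mycophenolate mofetil at 500 mg and prednisolone at 20 mg a day were given to all of them from day 9. On day 14, through a left thoracotomy, the study applied either scaffold-free vascular organoids secured with fibrin glue or fibrin glue alone. The organoids were made of human endothelial progenitor cells and of smooth muscle cells derived from human mesenchymal stem cells. They were placed over the infarct and the border zones around it, and hearts were taken 28 days later. The treatment of each animal was not used here, so no comparison between treatments was made. In animals given organoids, region and graft site cannot be told apart. The border zone was the tissue next to the infarct and the remote zone was the posterior wall of the same heart, so the remote zone is injured-heart tissue far from the infarct and not healthy myocardium. Animals are named by their numbers 1022, 1322, 1323, 1623, 1922 and 3622.

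Resident cardiac fibroblasts keep up the collagen network of the heart. After an infarct they divide, take on new surface proteins and secrete scar matrix, driven in large part by TGF-beta and by mechanical load, and some of them gain stress fibres and become myofibroblasts. The 10 genes cover the surface of such cells (FAP, THY1, LRRC15, DDR2), what they secrete (CTHRC1, LRRC17) and the transcription factors that act in them (RUNX1, RUNX2, MEOX1, SCX).

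The deposited counts summed to between 15130210 and 30526110 reads per border library and to between 20091415 and 31618680 per remote library. The border library of animal 3622 stood apart with 28024 genes that had at least 1 read, against 17563 to 20148 in the other border libraries and 16932 to 18076 in the remote libraries. Levels are given as CPM, in which the reads of a gene are scaled to the size of the library and its TMM factor. The quasi-likelihood test of edgeR was used, and a gene was called where its p after Benjamini-Hochberg adjustment over all 13844 genes was under 0.05. The heart label held in every library: the summed CPM of TNNT2, TNNI3, ACTN2, RYR2 and PLN was 23853 to 42383 in the remote zone and 4922 to 31385 in the border zone, with the lowest sum in the border library of animal 1022. MYH7 had no identifier. In whole-tissue RNA like this, more fibroblasts and more RNA of a gene per fibroblast cannot be told apart.

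The promoters of the 4 genes that were called, FAP, CTHRC1, LRRC17 and RUNX1, are shown because these genes were higher in the same tissue and because RUNX1 is itself a DNA-binding factor. Each window holds 250 bases before and 50 from the outermost RefSeq gene start on Sscrofa11.1, written 5′ to 3′ on the strand of the gene, and capitals mark matches to the motifs searched. FAP lies at chr15:68902367-68902666 on the minus strand, CTHRC1 at chr4:33771576-33771875 on the minus strand, LRRC17 at chr9:103062403-103062702 on the plus strand and RUNX1 at chr13:198635599-198635898 on the minus strand.
FAP: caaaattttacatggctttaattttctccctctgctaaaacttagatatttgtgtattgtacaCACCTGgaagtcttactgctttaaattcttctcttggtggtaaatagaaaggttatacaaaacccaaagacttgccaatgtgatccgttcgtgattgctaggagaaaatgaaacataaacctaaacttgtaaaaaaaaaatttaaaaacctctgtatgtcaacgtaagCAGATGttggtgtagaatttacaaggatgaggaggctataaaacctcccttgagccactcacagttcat
CTHRC1: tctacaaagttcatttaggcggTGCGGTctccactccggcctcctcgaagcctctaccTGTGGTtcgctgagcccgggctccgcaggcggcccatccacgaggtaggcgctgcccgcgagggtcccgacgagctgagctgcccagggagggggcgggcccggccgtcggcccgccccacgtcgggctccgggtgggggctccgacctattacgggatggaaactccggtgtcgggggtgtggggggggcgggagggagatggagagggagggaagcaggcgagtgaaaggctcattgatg
LRRC17: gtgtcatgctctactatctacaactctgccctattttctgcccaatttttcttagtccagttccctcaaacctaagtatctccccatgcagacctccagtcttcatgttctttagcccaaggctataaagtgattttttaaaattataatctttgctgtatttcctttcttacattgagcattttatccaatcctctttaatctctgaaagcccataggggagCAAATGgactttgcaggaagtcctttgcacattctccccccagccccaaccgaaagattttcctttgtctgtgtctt
RUNX1: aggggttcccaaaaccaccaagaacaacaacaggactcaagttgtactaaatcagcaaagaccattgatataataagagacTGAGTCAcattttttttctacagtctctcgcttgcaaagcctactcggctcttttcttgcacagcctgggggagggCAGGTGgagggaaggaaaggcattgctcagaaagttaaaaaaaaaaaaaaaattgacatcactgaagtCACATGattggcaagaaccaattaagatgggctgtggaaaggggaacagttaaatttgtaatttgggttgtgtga
The motifs were searched on both strands, and matches of different motifs could overlap. The RUNX motif, TGTGGT or TGCGGT, was found at 2 places in the CTHRC1 window, -228 and -192, where the first base of the match is counted from the gene start, and in none of the other 3 windows shown. It occurred in 22.4% of the 19556 promoters of the same length. The E-box CANNTG, the class of site that SCX and other basic helix-loop-helix factors bind, was in 67.8% of all promoters. It was found in the windows of FAP (-187 and -19), LRRC17 (-27) and RUNX1 (-93 and -25), and not in that of CTHRC1. The AP-1 motif TGANTCA, in 6.07% of promoters, was found in the RUNX1 window at -169. The TEAD motif GGAATG, in 11.8%, and the SMAD motif GTCTAGAC, in 0.194%, had no match in the 4 windows. The CTHRC1 window had 69.3% G and C against 35% in FAP, 41% in LRRC17 and 41.3% in RUNX1, with a median of 58.7% over all promoters. Among the promoters not printed, those of RUNX2 and MEOX1 held the RUNX motif, at -102 and 27 in RUNX2 and at 24 in MEOX1. Those of LRRC15 and RUNX2 held the AP-1 motif, at -62 and -154, and those of MEOX1, RUNX2, SCX and DDR2 held the E-box. These matches describe letters in the window and not binding.

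All 7 tested genes had fitted levels in the border zone above those of the remote zone, and 4 of them passed the test. FAP, CTHRC1, LRRC17 and RUNX1 rose, and MEOX1, SCX and DDR2 had positive fold changes that did not pass. None was lower. Over all 13844 genes, 2.06% passed as higher in the same fit. The median log2 fold change of the 7 genes was 2.05, against 0.04 over all genes tested. In 3 of the 7, CTHRC1, LRRC17 and RUNX1, every border library lay above every remote library, which held for 1.99% of all genes tested. In 6 of the 7 the border library was the higher one in all 6 animals, which held for 11.7% of all genes tested. With the animal as a block in the fit, CTHRC1 alone of the 7 passed, where 0.289% of all genes passed as higher. CTHRC1 passed the filter in 6 border libraries and 4 remote libraries, and DDR2 in 6 and 5, while the other 5 tested genes passed it in all 12.

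**Figure D1:**
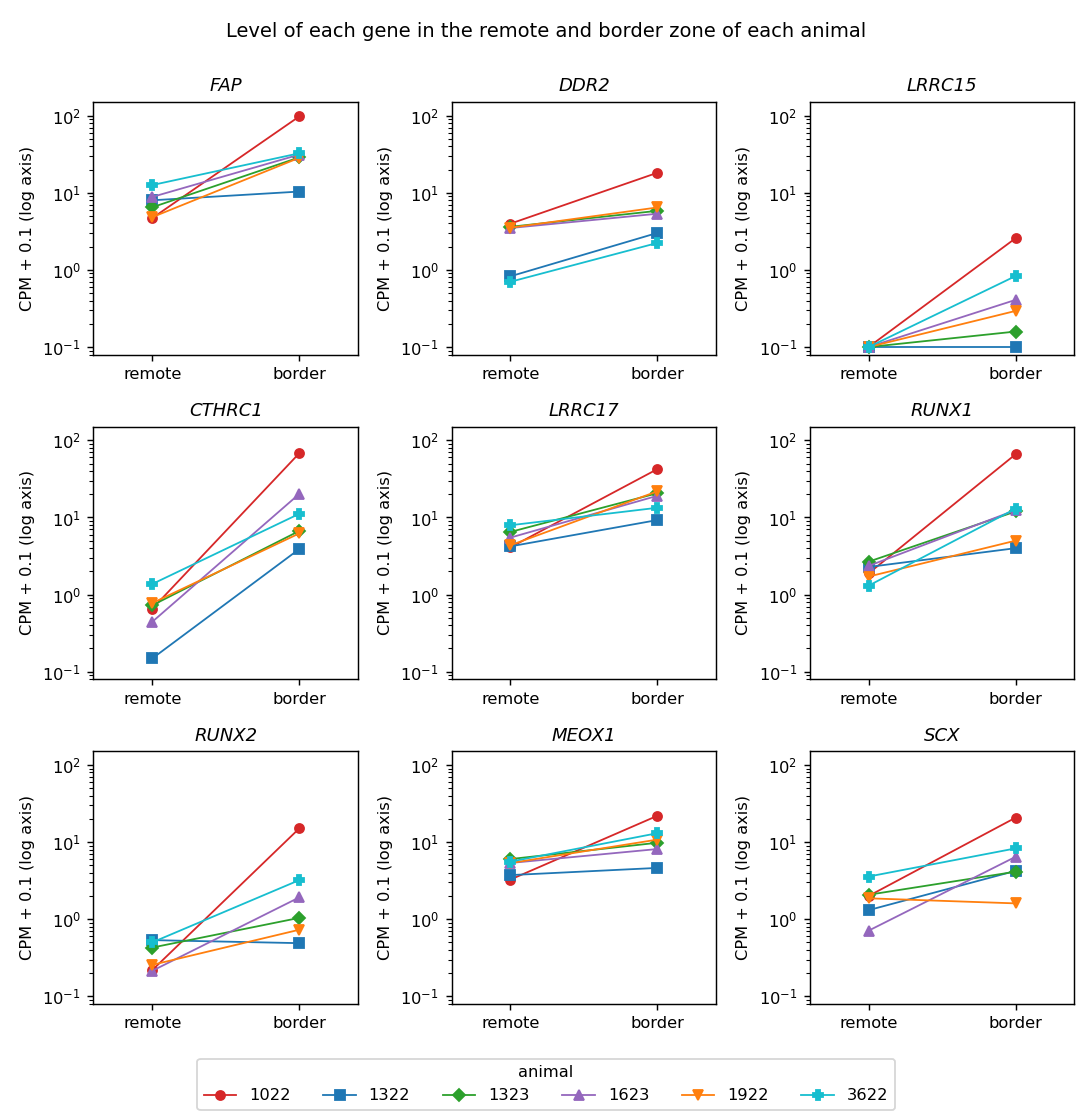
Level of the 9 genes with an identifier in the remote and the border zone, in CPM with 0.1 added on a log axis, with 1 line per animal. The line of animal 1022 ends highest in the border zone in all 9 panels, and the remote values of LRRC15 are all at 0.

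FAP, fibroblast activation protein, is a serine protease on the cell surface that cleaves denatured collagen and is little used by resting fibroblasts. Its CPM was 4.59 to 12.5 in the remote zone, with a median of 7.14, and 10.3 to 97.8 in the border zone, with a median of 30.0. The border library of animal 1322, at 10.3 CPM, lay within the remote range, and the other 5 border libraries, from 28.4 CPM up, lay above it. In 6 of 6 animals the border library had more FAP than the remote library, by ratios of CPM between 1.30 in animal 1322 and 21.3 in animal 1022. The log2 fold change was 2.36 (SE 0.45, n = 6 libraries per region, adjusted p = 0.0276 by edgeR's quasi-likelihood test). With the animal as a block it was 2.09 (SE 0.46, adjusted p = 0.0772 by edgeR). FAP was no longer called in that fit. The closest relative of FAP, the dipeptidyl peptidase DPP4, had lower CPM in the border tissue in 6 of 6 animals, with a log2 fold change of -0.79 (SE 0.29) that did not pass (adjusted p = 0.124, and 0.0602 with the block, by edgeR). The ratio of FAP to DPP4 CPM was 0.0923 to 0.303 in the remote zone and 0.182 to 6.20 in the border zone, and it was above the remote ratio in 6 of 6 animals.

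DDR2, a receptor tyrosine kinase that is activated by fibrillar collagen, had 0.602 to 3.88 CPM in the remote zone and 2.14 to 18.1 CPM in the border zone, with medians of 3.41 and 5.50. Every animal had more DDR2 in its border library, but 2 of the 6 border libraries lay inside the remote range. These were the border libraries of animals 1322 and 3622, at 2.92 and 2.14 CPM. Their remote libraries were also the lowest, at 0.727 and 0.602 CPM, against 3.40 to 3.88 CPM in the other 4 animals. The within-animal difference lay between 0.62 and 2.20 in log2 CPM, and animals 1322 and 3622, lowest in both regions, were not the lowest in it. DDR2 had a log2 fold change of 1.37 (SE 0.56) that did not pass (adjusted p = 0.156 by edgeR's quasi-likelihood test). With the animal as a block the estimate was 1.33 with a smaller SE of 0.28, and it still did not pass (adjusted p = 0.0732 by edgeR). DDR1, the relative of DDR2 that epithelial cells carry, had a log2 fold change of 0.13 (adjusted p = 0.779 by edgeR).

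LRRC15, a leucine-rich repeat membrane protein known as a mark of TGF-beta-driven myofibroblasts, had no read in any of the 6 remote libraries. In the border zone it had 75 reads in animal 1022, 12 in animal 3622, 9 in animal 1623, 4 in animal 1922, 2 in animal 1323 and 0 in animal 1322, or 102 reads in all. The pooled border level was 30.8 times the limit that 0 reads allow, taken as 3 reads over the 6 remote libraries together. Without animal 1022 the remaining 27 reads gave 10.2 times that limit. These ratios allow for counting error in the remote zone only. They leave out the counting error of the border reads and the spread between animals. In the fit without the filter on low counts LRRC15 did not pass (adjusted p = 0.0669 by edgeR's quasi-likelihood test).

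CTHRC1, a secreted glycoprotein of scar-forming fibroblasts that is also known to favour noncanonical Wnt signalling, showed the largest fold change of the 7 tested genes. It was nearly silent in the remote zone, with 0.0484 to 1.27 CPM and a median of 0.590, which came from 1 to 19 reads per library. In the border zone it had 3.80 to 68.0 CPM, with a median of 8.83. The regions did not overlap, since the lowest border library, that of animal 1322, lay above the highest remote library, that of animal 3622. The ratio of CPM between the regions was 8.71 to 123 by animal. The log2 fold change was 5.07 (SE 0.80, n = 6 libraries per region, adjusted p = 0.0164 by edgeR's quasi-likelihood test), and 4.58 with the animal as a block (SE 0.60, adjusted p = 0.0410 by edgeR). Without animal 1022 it was 4.04 (adjusted p = 0.0104 by edgeR). Of the 4 listed genes of noncanonical Wnt signalling, all of which were tested, 1 was called. This was ROR2, a Wnt5a receptor, with a log2 fold change of 4.72 (SE 1.04, adjusted p = 0.0353, and 0.0798 with the block, by edgeR). ROR2 had 37.7 CPM in the border library of animal 1022 and 0.292 CPM in that of animal 1322, which was below the 0.533 CPM of the remote library of the same animal. The ligand WNT5A, the receptor FZD6 and the polarity protein VANGL2 did not pass, with log2 fold changes of 0.37, 0.11 and 2.14. FZD6 also flanks CTHRC1 on Sscrofa11.1, 39534 bases away, with SLC25A32 at 31745 bases on the other side. Without animal 1022 ROR2 had a log2 fold change of 3.04 (adjusted p = 0.0765 by edgeR), and of the 5 fits with 1 animal left out that could test it, it was called in 1, without animal 1322.

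LRRC17, a secreted leucine-rich repeat protein studied in bone as an inhibitor of osteoclast formation by RANKL, also rose. Its CPM was 3.999 to 7.82 in the remote zone, with a median of 4.82, and 9.16 to 42.3 in the border zone, with a median of 19.8. No border library reached down to the remote range. The ratio of CPM between the regions was 1.70 in animal 3622 and 2.22 in animal 1322, and between 3.22 and 10.6 in the other 4. The log2 fold change was 1.98 (SE 0.33, adjusted p = 0.0189 by edgeR's quasi-likelihood test). It was 1.86 with the animal as a block (SE 0.32, adjusted p = 0.0564 by edgeR), and LRRC17 was not called there. LRRC17 shares 60 of its 7718 exon bases with FBXL13 on the opposite strand, and since the libraries were not strand-specific, reads there could belong to either gene. Neither tested gene of the RANKL axis passed: TNFRSF11B, the decoy receptor, had a log2 fold change of 0.98 and TNFRSF11A, the receptor, 0.30 (adjusted p = 0.310 and 0.605 by edgeR). The ligand TNFSF11 fell under the filter, with 0 to 1.19 CPM in the border zone.

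RUNX1, a runt-domain transcription factor best known from blood formation that is also induced in injured heart muscle and its fibroblasts, had 1.20 to 2.57 CPM in the remote zone and 3.90 to 65.9 CPM in the border zone. The medians were 1.98 and 12.1. The regions did not overlap, and the border library of animal 1022 was 5.11 times as high as the next highest, that of animal 3622. The log2 fold change was 3.26 (SE 0.62, adjusted p = 0.0276 by edgeR's quasi-likelihood test). With the animal as a block it was 2.58 (SE 0.53, adjusted p = 0.0709 by edgeR), so the call was lost. Without animal 1022 the log2 fold change was 2.20, and RUNX1 was called (adjusted p = 0.0137 by edgeR). RUNX1 is also a gene of blood cells, and the macrophage markers, whose values are given with the other cell types, were highest in the same border library.

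RUNX2, the related factor that directs bone formation, followed the same animals at a lower level. Its counts were 3 to 10 reads in the remote libraries and 8 to 453 reads in the border libraries, or 0.114 to 0.436 CPM and 0.390 to 14.97 CPM. Animal 1322 had 8 reads in the border zone and 9 in the remote zone, and its border library lay within the remote range. The other 5 border libraries lay above it, and animal 1022 held 68.4% of the summed border CPM. RUNX2 was under the filter with all 12 libraries. In the fit without the filter, 0.459% of 30085 genes passed as higher, and the median log2 fold change over all of them was 0.75. RUNX2 had a log2 fold change of 3.73 there (SE 0.87, adjusted p = 0.0715 by edgeR's quasi-likelihood test). With the animal as a block as well, that value was 2.75 (SE 0.81, adjusted p = 0.131 by edgeR). It reached the count level of the filter in 5 border libraries and in 0 remote libraries. RUNX1 was not called without the filter either (adjusted p = 0.0578 by edgeR).

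None of the 5 listed partners of the RUNX proteins was called, and their median log2 fold change was 0.29, although CBFA2T3 passed without animal 1322. CBFB, the subunit that runt-domain factors need to bind DNA, had 16.6 to 32.04 CPM in the remote zone and 20.4 to 41.7 CPM in the border zone. Its log2 fold change was 0.29 (SE 0.20, adjusted p = 0.388 by edgeR). RUNX3, the third member of the family and used by lymphocytes, had a log2 fold change of 1.70 (SE 0.56, adjusted p = 0.0989 by edgeR), and of 0.74 without animal 1022. It had 11.9 CPM in the border library of animal 1022 and 1.55 to 2.20 CPM in the other border libraries. Of the 7 listed bone and cartilage genes that RUNX2 regulates in the skeleton, 3 could be tested and 1 was called. This was SPP1, osteopontin, which macrophages also make, with a log2 fold change of 8.48 (SE 1.69, adjusted p = 0.0293, and 0.0830 with the block, by edgeR), 2106 CPM in the border library of animal 1022 and a border median of 20.6 CPM. Without animal 1022 SPP1 had a log2 fold change of 5.98 (adjusted p = 0.0581 by edgeR), with the block 5.10, and of the 6 fits with 1 animal left out it was called in 1, without animal 1322. ALPL, a phosphatase of mineralizing cells, had lower CPM in the border library of every animal, with a log2 fold change of -0.57 that did not pass (adjusted p = 0.419 by edgeR). BGLAP, osteocalcin, had 0.267 to 0.802 CPM in the remote zone and 0.292 to 1.04 CPM in the border zone, and SP7, IBSP, MMP13 and COL10A1 fell under the filter.

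MEOX1, a homeobox factor of the somites that is switched on in stressed cardiac fibroblasts, had 3.17 to 5.93 CPM in the remote zone and 4.53 to 21.9 CPM in the border zone, with medians of 5.26 and 10.2. The border library exceeded the remote library in 6 of 6 animals, by ratios of 1.25 to 6.91, and only the border library of animal 1322 lay within the remote range. The log2 fold change was 1.24 (SE 0.32) and did not pass (adjusted p = 0.0537, and 0.0856 with the block, by edgeR's quasi-likelihood test). MEOX1 passed without animal 1322 (log2 fold change 1.32, adjusted p = 0.0393 by edgeR). Its relative MEOX2, a factor of endothelium and muscle, had a log2 fold change of 0.41 (adjusted p = 0.162 by edgeR).

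SCX, scleraxis, is a basic helix-loop-helix factor of tendon that activates collagen genes in cardiac fibroblasts. Its CPM was 0.610 to 3.48 in the remote zone and 1.51 to 20.7 in the border zone, with medians of 1.83 and 5.25. In animal 1922 the border library, at 1.51 CPM, was below the remote library, at 1.77 CPM, and it was the only border library inside the remote range. The log2 fold change was 2.05 (SE 0.55) and did not pass (adjusted p = 0.0633, and 0.0854 with the block, by edgeR's quasi-likelihood test). The E proteins TCF3, TCF4 and TCF12, which pair with SCX on DNA, did not pass, with log2 fold changes of 0.42 to 0.76. Of the tendon genes, FMOD, a collagen-binding proteoglycan, was called, with a log2 fold change of 4.83 (SE 0.93, adjusted p = 0.0276, and 0.0773 with the block, by edgeR), and of 2.90 without animal 1022. With 1 animal left out FMOD was called in 2 of 6 fits, without animal 1022 or 1322. TNMD, tenomodulin, had no read in the remote zone and 0 to 0.824 CPM in the border zone, and MKX had 0 to 0.428 CPM and 0.146 to 5.75 CPM. Both were under the filter.

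**Figure D2:**
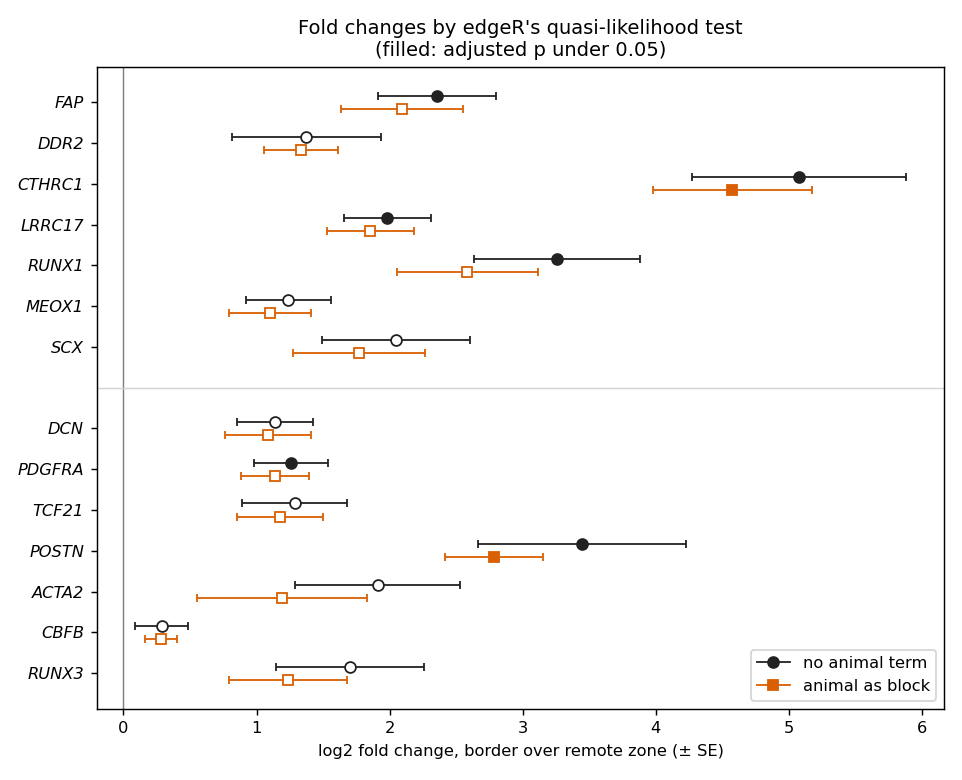
Log2 fold change of border over remote zone for the 7 tested genes and the 7 genes set beside them, with the SE as bars, from the fit without an animal term (black circles) and with the animal as a block (orange squares). Filled symbols passed an adjusted p of 0.05, and with the block only CTHRC1 and POSTN did.

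The calls depended on which animals were in the fit. Over all genes, 157 of 13831 passed as higher without animal 1022 and 509 of 13966 without animal 1322. FAP, CTHRC1, LRRC17 and RUNX1 were each called in both of these fits, and in none of the 4 fits without animal 1323, 1623, 1922 or 3622. In those 4 fits all 7 genes had positive fold changes with an unadjusted p under 0.05, which also held for 13%, 14.2%, 15.5% and 14.7% of all genes tested in the same order of fits. By adjusted p, 0, 3 or 15 genes of the whole table passed in them. Over the 6 fits with 1 animal left out, the log2 fold change ranged from 1.70 to 2.59 for FAP, from 4.04 to 5.52 for CTHRC1, from 1.58 to 2.22 for LRRC17 and from 2.20 to 3.49 for RUNX1. The highest adjusted p was 0.118 for FAP, 0.103 for CTHRC1 and LRRC17 and 0.108 for RUNX1 by edgeR's quasi-likelihood test. For MEOX1, SCX and DDR2 the ranges were 0.84 to 1.36, 1.42 to 2.30 and 0.93 to 1.55. In each of the 7 genes the lowest of these values was the fit without animal 1022. Without the border library that stood apart in the number of genes detected, that of animal 3622, the log2 fold changes were 2.59 for FAP, 5.52 for CTHRC1, 2.22 for LRRC17 and 3.24 for RUNX1.

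The highest border library was the same for all genes, and the order of the others varied. In the border zone animal 1022 was the highest for 9 of the 9 genes with an identifier. Animal 3622 came next for 6 of them, but for LRRC17, at 13.3 CPM, it lay above animal 1322 only. Animal 1322 was the lowest for 7 of 9, the exceptions being SCX, lowest in animal 1922, and DDR2, lowest in animal 3622. Animal 1022 held 42.7% of the summed border CPM of FAP, 58.8% of CTHRC1, 58.9% of RUNX1 and 65.7% of LRRC15, but 32.3% of MEOX1 and 33.6% of LRRC17. The same animal was the lowest in the remote zone for FAP, MEOX1 and LRRC17 and the highest there for DDR2, at 3.88 CPM. In animal 1322, 7 of 9 genes were higher in the border zone, in animal 1922 8 of 9, and in the other 4 animals all 9.

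The border minus remote differences were set beside those of 6 genes that fibroblasts carry whether activated or not, DCN, LUM, PDGFRA, TCF21, FBLN1 and COL6A3. The mean difference of these 6 genes, in log2 CPM with a prior count of 2, was 3.11 in animal 1022, 1.73 in animal 1922, 1.71 in animal 1323, 1.23 in animal 1623, 0.65 in animal 3622 and 0.59 in animal 1322. CTHRC1 exceeded that mean in 6 of 6 animals, by 1.30 to 4.34 and with a median of 3.01. The highest excess was 5.19 with a prior count of 0.5 and 3.98 with one of 5, and the remote value of animal 1322 rests on 1 read. CTHRC1 lay above the mean in 6 of 6 animals at each of these prior counts. FAP, LRRC17 and RUNX1 exceeded it in 5 of 6 animals, with medians of 0.66, 0.41 and 0.83. MEOX1 exceeded it in 1 animal, 3622, and DDR2 in 2, 1322 and 3622, with medians of -0.49 and -0.73. SCX exceeded it in 4 of 6. RUNX2, with 3 to 10 reads per remote library, exceeded it in 3, or in 4 with a prior count of 0.5. LRRC15 was not set beside the mean, since with 0 remote reads its difference is fixed by the prior count. In animal 1322, whose general fibroblast difference was the smallest, the difference of CTHRC1 was 4.88 and those of FAP, MEOX1 and RUNX1 were 0.38, 0.31 and 0.81. These differences are a description over animals and were not tested.

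**Figure D3:**
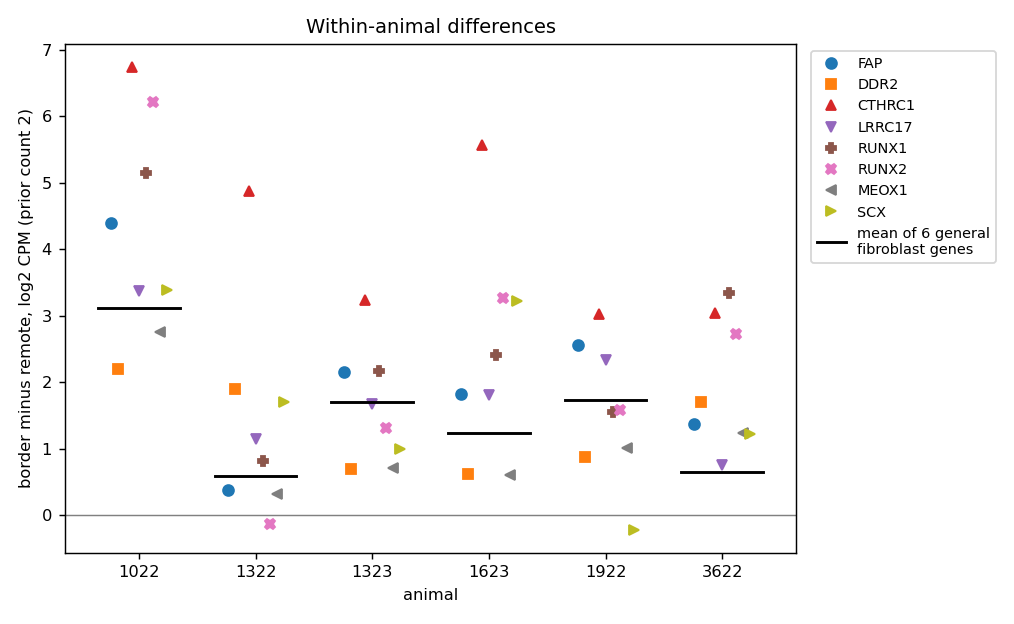
Border minus remote difference in log2 CPM (prior count 2) of 8 genes in each of the 6 animals, with a black bar for the mean of the 6 general fibroblast genes. CTHRC1 lies above the bar in all 6 animals, by 1.30 to 4.34, and SCX in animal 1922 and RUNX2 in animal 1322 lie under 0.

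Of the 6 general fibroblast genes, 4 were called, with a median log2 fold change of 1.63. COL6A3, LUM, FBLN1 and PDGFRA rose by 2.62, 1.97, 2.10 and 1.26 on the log2 scale (adjusted p = 0.0328, 0.0338, 0.0338 and 0.0355 by edgeR's quasi-likelihood test). DCN, the proteoglycan decorin, and TCF21, a factor of resident fibroblasts, had 1.14 and 1.29 and did not pass (adjusted p = 0.0509 and 0.0865 by edgeR), and both were slightly lower in the border zone of animal 3622. The summed CPM of the 6 genes was 350 to 716 in the remote zone and 693 to 4470 in the border zone. None of the 6 was called with the animal as a block. With 1 animal left out, COL6A3, LUM and FBLN1 were called in 2 of the 6 fits, without animal 1022 and without animal 1322, PDGFRA in 1, without animal 1322, and 0 of 6 genes in the other 4 fits. Without animal 1022 COL6A3, LUM and FBLN1 had lower log2 fold changes of 1.56, 1.29 and 1.36. The part of this list in the differences of FAP, CTHRC1, LRRC17 and RUNX1 was not tested.

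The secreted matrix genes were the list with the most calls, with 8 of 8 higher and a median log2 fold change of 3.36. TNC, LOX, COL3A1 and COL5A1 rose by 5.31, 3.11, 2.98 and 2.93 on the log2 scale (adjusted p = 0.0253, 0.0276, 0.0276 and 0.0293 by edgeR's quasi-likelihood test). POSTN, periostin, which activated fibroblasts secrete, rose by 3.44 (SE 0.78, adjusted p = 0.0395 by edgeR), and it was the 1 gene of this list that passed with the block (2.78, SE 0.37, adjusted p = 0.0410 by edgeR). All 8 genes were highest in the border library of animal 1022, where their summed CPM was 69236, against 2943 in the lowest border library and 910 to 2355 in the remote zone. With 1 animal left out, the 8 genes were called in 2 of the 6 fits, those without animal 1022 and without animal 1322, and 0 of 8 were called in the other 4, where the highest adjusted p was 0.133, that of POSTN. Without animal 1022 their median log2 fold change was 2.19, with TNC at 3.53, POSTN at 2.50, COL3A1 at 2.01, LOX at 1.92 and COL5A1 at 1.81. With the block the median was 2.61. Without the filter on low counts, only COL3A1 and COL5A1 of the 8 were still called (adjusted p = 0.0372 and 0.0490 by edgeR). None of the 8 contractile genes, which myofibroblasts share with smooth muscle, was called, with a median of 1.23 and positive fold changes in 7. CALD1 had 1.33 and CNN1 1.13 (adjusted p = 0.0513 and 0.0619 by edgeR), both higher in the border library of every animal. CALD1 passed without animal 1022, and CALD1 and CDH11 without animal 1322. ACTA2, smooth muscle actin, had 25.2 to 94.5 CPM in the remote zone and 82.1 to 927 CPM in the border zone, where the highest value, in animal 1022, was followed by 139 CPM. Its log2 fold change was 1.91 (SE 0.62, adjusted p = 0.0973 by edgeR) and 0.60 without animal 1022. CDH11, a cadherin between myofibroblasts, had 2.45 (adjusted p = 0.0581 by edgeR), with 1.56 in the fit with the block and 1.12 without animal 1022, and TPM2, a tropomyosin, had -0.64 and was lower in the border library of every animal (adjusted p = 0.229 by edgeR).

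Among the 12 listed ligands, receptors, SMADs and feedback genes of TGF-beta signalling, 1 was called, 11 had positive fold changes and SMAD4 had -0.08, with a median of 0.54. TGFB3 rose by 2.43 on the log2 scale (SE 0.36, adjusted p = 0.0123, and 0.0564 with the block, by edgeR's quasi-likelihood test). It had 8.47 to 16.1 CPM in the remote zone and 27.3 to 165 CPM in the border zone, without overlap, and it was called in 2 of the 6 fits with 1 animal left out, those without animal 1022 or 1322. TGFB1 and TGFB2 had log2 fold changes of 0.26 and 0.75 and did not pass. None of the 8 tested mesenchymal transcription factors passed, with a median of 0.63. PRRX1, which passed without animal 1322, had 2.15 (adjusted p = 0.0503 by edgeR), or 1.30 without animal 1022, and SNAI2 had 1.59 (adjusted p = 0.0811 by edgeR), or 0.85 without animal 1022, while TWIST1 had no identifier. Of the integrin subunits that bind THY1, 0 of 4 tested passed, with ITGB3 at 2.39 and ITGB2 at 2.20 (adjusted p = 0.0876 and 0.0953 by edgeR). With the block these were 1.24 and 1.05, and without animal 1022 they were 0.80 and 0.68. In the border library of that animal ITGB3 had 86.6 CPM and ITGB2 192 CPM, against border medians of 7.65 and 13.6 CPM. Over all these lists, and over those of other cell types, no gene was called as lower, although DPP4 passed as lower without animal 1322.

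**Figure D4:**
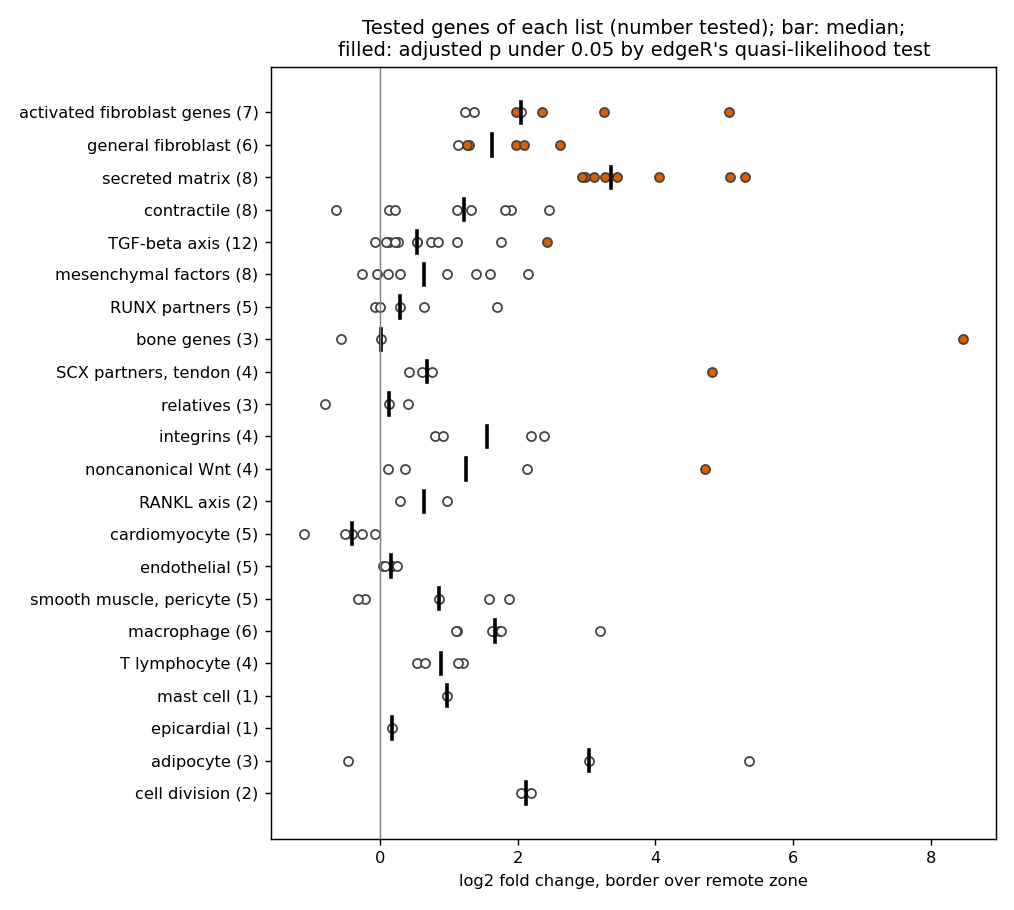
Log2 fold change of border over remote zone for each tested gene of 22 lists, with the number tested in brackets, the median as a black bar and called genes filled. All 8 secreted matrix genes are filled, 4 of the 7 activated fibroblast genes are, and none of the 8 contractile genes is.

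Markers of other cells did not pass the test in either direction, although without animal 1322 CSPG4, ADIPOQ, PLIN1 and CCNB1 did. The 6 macrophage markers had a median log2 fold change of 1.68, and of 1.02 with the block and 0.63 without animal 1022, and 0 of 6 passed. CD68 had 3.20 (adjusted p = 0.0637 by edgeR), with 1.71 in the fit with the block and 1.31 without animal 1022, and AIF1 had 1.76 (adjusted p = 0.106 by edgeR), or 1.10 without animal 1022. Their summed CPM was 70.3 to 122 in the remote zone and 71.0 to 889 in the border zone, with each of the 6 genes highest in the border library of animal 1022. The 5 smooth muscle and pericyte markers had a median of 0.85 and 0 of 5 passed, with CSPG4 at 1.88 and MYH11 at 1.59, or 1.06 and 0.80 without animal 1022, but RGS5 at -0.22 and KCNJ8 at -0.32, and a summed CPM of 235 to 421 in the remote zone and 302 to 685 in the border zone. The 5 endothelial markers had a median of 0.16, 0 of 5 passed, with TIE1 at 0.25 and PECAM1 at 0.17, and their sums overlapped, at 211 to 502 and 299 to 456 CPM. The 5 cardiomyocyte markers had negative fold changes with a median of -0.40, none of which passed, led by TNNI3 with -1.10 (adjusted p = 0.148 by edgeR) and PLN with -0.51, and their sum was lower in the border library of every animal.

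The 4 T lymphocyte markers had a median of 0.89, with CD2 at 1.21 and CD5 at 1.13, and 0 of 4 passed. None of the 3 B lymphocyte markers could be tested, and their summed CPM was at most 0.713 in the remote zone and 3.85 in the border zone. The 2 tested cell division genes, CCNB1 and TOP2A, had 2.19 and 2.05 (adjusted p = 0.0813 and 0.0778 by edgeR), or 1.55 and 1.21 without animal 1022. Of the mast cell and epicardial markers 1 each could be tested, KIT at 0.98 and WT1 at 0.17, without a call. Of the 3 adipocyte markers, whose median was 3.04, 0 passed. ADIPOQ had 5.37 and PLIN1 3.04 (adjusted p = 0.0540 and 0.0693 by edgeR), with PLIN1 at 2.01 in the fit with the block, FABP4 had -0.46 (adjusted p = 0.528 by edgeR), and ADIPOQ passed with the block (5.72, adjusted p = 0.0476 by edgeR). The defining marker at 0 in all remote libraries was HDC of mast cells. In the border zone HDC had a median of 0.552 CPM and at most 1.35 CPM, and it was higher there in 5 animals. It was under the filter, and in the fit without it HDC did not pass (log2 fold change 6.83, adjusted p = 0.0577 by edgeR). The part of other cell types in the differences of the activated fibroblast genes was not tested.

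Levels were compared between the genes per kb of RefSeq exon, counted over all isoforms together. In the border zone the medians ran from FAP, with 10.3 CPM per kb, through CTHRC1 with 6.88, SCX with 3.26, MEOX1 with 3.25, LRRC17 with 2.56 and RUNX1 with 1.94 to DDR2 with 0.458, RUNX2 with 0.239 and LRRC15 with 0.0420. In the remote zone FAP was again first with 2.45, followed by MEOX1 with 1.68, SCX with 1.14, LRRC17 with 0.6246, CTHRC1 with 0.459, RUNX1 with 0.317, DDR2 with 0.284 and RUNX2 with 0.0420. CTHRC1 thus stood at place 5 in the remote zone and next to FAP in the border zone. The ranges of neighbours in either order overlapped, except that RUNX2 lay above LRRC15, which had no read, in the remote zone. The DDR2 length, 12005 bases over 10 transcripts, is the longest of the 9, and isoforms that the heart does not use would lower its level per kb.

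**Figure D5:**
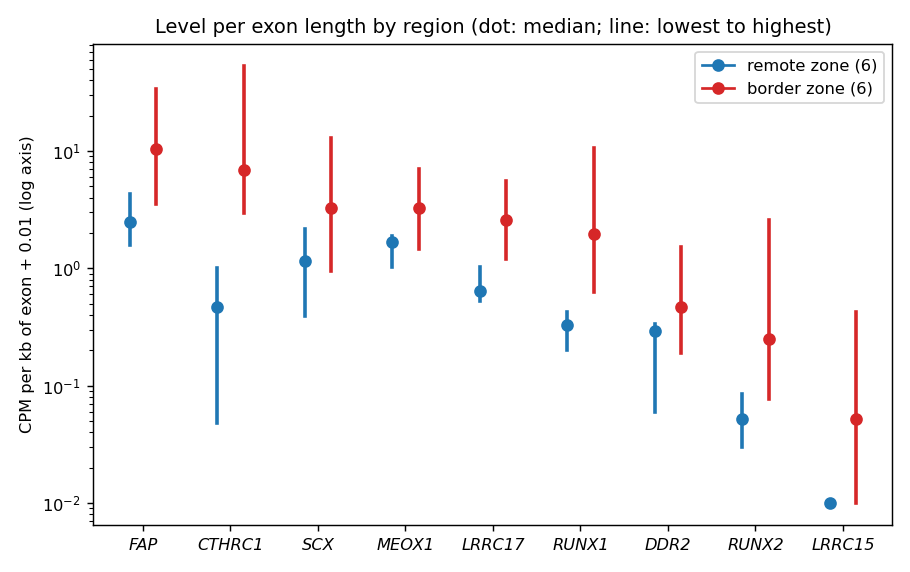
Level per kb of exon, in CPM per kb with 0.01 added on a log axis, for 9 genes in the 6 remote (blue) and 6 border (red) libraries, with the median as a dot and the lowest to highest value as a line. FAP has the highest median in both regions, and CTHRC1 shows the widest step between the medians, from 0.459 to 6.88, of the 8 genes with remote reads. The highest border value of CTHRC1, 53.0, lies above that of FAP, 33.5.

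The 9 genes lie on 6 chromosomes of Sscrofa11.1. CTHRC1 (chr4:33759541-33771625), SCX (chr4:500884-503276) and DDR2 (chr4:87749738-87911818) are on chromosome 4, and RUNX1 (chr13:198371835-198635648) and LRRC15 (chr13:131339778-131354691) are on chromosome 13. FAP (chr15:68831281-68902416), MEOX1 (chr12:19431397-19452430), LRRC17 (chr9:103062653-103099886) and RUNX2 (chr7:40106581-40353304) are each on a chromosome of their own. RUNX2 overlaps SUPT3H and SCX overlaps BOP1 on the opposite strand, in each case with 0 shared exon bases. Of the 18 named coding genes that flank the 9, 13 were tested and 0 were called, with log2 fold changes from -0.49 to 2.08. The highest was that of ETV4, which lies 79077 bases from MEOX1 (adjusted p = 0.0693 by edgeR's quasi-likelihood test). The flanking genes were examined after their values could be seen.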

How the data were processed

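Raw counts per gene were deposited by the authors, who made poly(A)-enriched, nondirectional libraries, aligned paired-end reads to Sscrofa11.1 with STAR and counted them with featureCounts. How reads matching more than 1 gene were treated is not given in the sources used here. Region and animal number came from the sample labels. A name table gave symbols for 15623 of the 35682 identifiers.

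The analysis used edgeR 4.0.16 and DESeq2 1.42.0 in R 4.3.3, and figures were drawn in Python 3.11.15 with matplotlib 3.10.9. Genes were kept by filterByExpr, scaled by TMM and tested for a difference between the regions with edgeR's robust quasi-likelihood fit and region as the only term, with Benjamini-Hochberg adjustment over all genes tested. Standard errors were obtained as log2 fold change over the square root of F. Log2 CPM used a prior count of 2. The steps were tested on simulated data. The 6 libraries of a region come from 6 animals, and p-values measure the spread between them, with PCR copies not told apart.

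Same-numbered libraries come from 1 animal by their labels, so the numbers pair them, and the deviations from the region means correlated with a mean r of 0.35 across genes (-0.03 in animal 1022 to 0.57 in animal 1323, 4 of 6 pairs over 0.1). The study named DESeq2 for its own test, on border zone libraries; its model terms are not given in the sources used here. The comparison of regions here had no block in the main fit, which treated the libraries of an animal as independent although they are paired. The animal as a block, which follows the pairing, was an alternative. The others left out each animal in turn or the mitochondrial genes, dropped the filter or asked for 10 counts in every library, scaled by DESeq2 size factors or by library totals, ran the Wald test of DESeq2, or set prior counts of 0.5 and 5.

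All 10 members were to be named. Of each other list, the called genes were named, up to 4 in order of adjusted p, or else the 2 with the largest fold change, besides DCN, PDGFRA, TCF21, POSTN, ACTA2, CBFB and RUNX3. Other genes of the lists and the flanking genes were named after their values were seen. Of the lists of cell markers, 1 is not reported here. The members and lists were chosen with earlier results of these data known. Gene positions and promoter windows were read from the RefSeq annotation and genome of Sscrofa11.1, whose gene models may differ from the Ensembl models that the authors counted on. All 9 members with an identifier matched a RefSeq gene.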

Additional observations from a re-analysis of the deposited data

How the results depend on the processing

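Against 287 genes called over the whole table, 41 were called with the animal as a replicate block, 1476 by the DESeq2 Wald test (1186 higher and 290 lower, against 285 and 2), 1551 with library totals only, 139 without the filter on low counts, 149 with at least 10 counts in every library, and 0 to 519 with 1 animal left out. The fits without animal 1623 or 3622 gave 0 calls by edgeR, with 2662 and 2448 genes at an unadjusted p under 0.05. With library totals the median over all genes went from 0.04 to 0.32 on the log2 scale, and without the filter to 0.75. Besides secreted matrix genes, COL6A3, ROR2, SPP1 and FMOD were not called without the filter (adjusted p = 0.0577 to 0.0915 by edgeR). Of the activated fibroblast genes, where 4 were called, the block left 1, CTHRC1, and leaving out 1 animal gave 0 to 6 calls, the 6 including RUNX2, which without animal 1322 entered the test through its border libraries only. With DESeq2 or library totals the calls were FAP, CTHRC1, LRRC17, RUNX1, MEOX1 and SCX. At 10 or more counts in every library CTHRC1 and DDR2 could not be fitted for their low counts in some libraries, and FAP, LRRC17 and RUNX1 were called. The block changed no other call among these 7 genes. No fold change of the 7 genes or of the 7 genes set beside them reversed under any alternative run that gave the gene an adjusted p. The DESeq2 Wald test gave none for ACTA2 and RUNX3. The median within-animal difference of CTHRC1 went from 4.06 to 3.24 without animal 1022, 1322 or 1623 and to 4.88 without each of the others, and that of LRRC15, whose remote libraries had 0 reads, from 1.98 to 3.67 and 1.13 with prior counts of 0.5 and 5. All 72 alternative medians kept their sign, and the other genes moved by under 1.5 times. LRRC15 and RUNX2 had 102 and 644 reads over 12 libraries, and whether depth or the spread between animals kept them from passing was not tested.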
